A study of Rattus norvegicus with 8 samples.

Results

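The drug-metabolizing enzyme genes of the rat were followed in lung endothelial cells after monocrotaline. The set held every gene on the arrays whose symbol places it in the cytochrome P450 families 1 to 4 (CYP), the flavin monooxygenases (FMO), the aldehyde dehydrogenases (ALDH), the epoxide hydrolases (EPHX), the glutathione S-transferases (GST), the sulfotransferases (SULT) or the UDP-glucuronosyltransferases (UGT), with 1 CYP2F gene left out by the rule. Of 15159 gene symbols matched on the arrays, 123 belonged to the set. Sult1c2a was singled out when the set was drawn up, with its result known. Sprague-Dawley rats of 8 to 10 weeks received a subcutaneous injection of monocrotaline at 60 mg/kg or of saline, with 4 animals in each group. After 5 days, cells were captured from collagenase-digested whole lung with magnetic beads carrying an antibody to CD31, a surface protein of endothelium that platelets and some leukocytes also carry, and their RNA was taken straight from the beads without culture. From each animal, 10 ng of RNA was amplified, labelled with Cy3 and read on its own 1-colour array. All 8 arrays lay on 1 slide, the saline arrays in row 1 and the monocrotaline arrays in row 2, so the row and the treatment cannot be told apart.

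Foreign chemicals are handled in steps. CYP and FMO enzymes first oxidise the compound, which may make it harmless or more reactive; epoxide hydrolases and aldehyde dehydrogenases deal with reactive epoxides and aldehydes; GST, SULT and UGT enzymes then attach glutathione, sulfate or glucuronic acid, and transporters export the product. Monocrotaline, a pyrrolizidine alkaloid, is itself converted to its toxic pyrrole mainly by CYP3A enzymes of the liver, and the pyrrole reaches the lung vessels with the blood, where glutathione can trap it. The same families also act on the body's own molecules, including fatty acid epoxides, retinaldehyde and steroid hormones.

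Values are log2 processed signals from which each array's 75th percentile was subtracted, so a negative value lies below that percentile of the array. They compare 1 gene across arrays and not 1 gene with another, since probes differ in how strongly they bind. Between 70.8% of spots (saline 2) and 77.7% (monocrotaline 3) were well above background, and 0 spots were saturated. A gene was tested with limma when its probe was well above background on at least 4 of the 8 arrays, and was called at a Benjamini-Hochberg adjusted p under 0.05 over all 19137 genes tested. A log2 fold change is monocrotaline minus saline, so 1 is a doubling. The 12 measured endothelial markers (Pecam1, Cdh5, Kdr and others) were well above background on all 8 arrays, and limma called 0 of them. Markers of other lung cells were present as well and are given beside the genes they moved with.

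Which enzymes could be seen came first. Of the 123 genes, 73 were tested (59.3%) and 57 were well above background on every array. Of the other 50, 43 were well above background on no array and 7 on 1 to 3 arrays. The families differed in this. All 4 EPHX genes, 15 of 16 ALDH, 5 of 6 FMO and 19 of 23 GST genes were tested. Only 2 of 12 UGT and 3 of 12 SULT genes were. Within the CYP families 2 of 3 CYP1, 15 of 28 CYP2 and 8 of 14 CYP4 genes were tested, and none of the 5 CYP3A genes. Cyp3a2, Cyp3a9, Cyp3a18, Cyp3a62 and Cyp3a23-3a1 were well above background on 0 of 8 arrays, so whether the enzymes that activate monocrotaline in liver changed in these cells was not detectable. The 4 Sult2 genes, 8 of 9 Ugt2 genes, 5 of 7 Cyp2c genes and Cyp1a2, an oxidase typical of liver, were likewise well above background on no array.

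**Figure D1:**
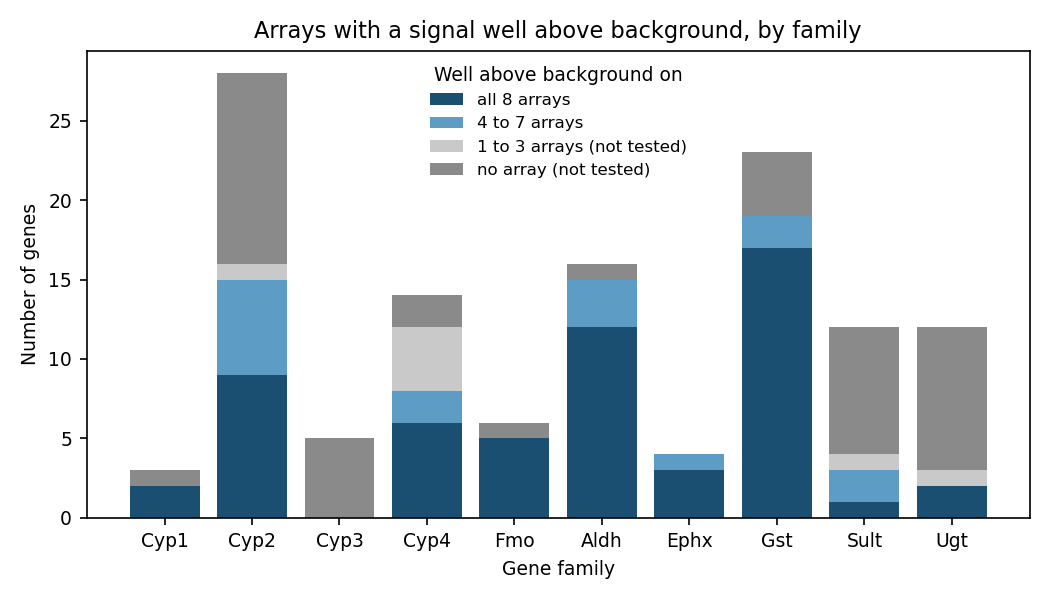
Number of genes (y axis) in each enzyme family (x axis), split by the number of the 8 arrays on which the gene was well above background. All 5 Cyp3 genes and 9 of 12 Ugt genes were above background on no array, while 17 of 23 Gst and 12 of 16 Aldh genes were above it on all 8.

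Counting both directions together, groups that did not overlap were about as common among the enzyme genes as among all genes. limma called 0 of the 73 genes higher after monocrotaline, where it called 1.37% of all genes tested higher, and 2 lower (2.74%), where it called 0.0627% of all genes lower. The 2 genes were Sult1c2a and Cyp2c7. Sult1c2a was not above background after monocrotaline, passed the filter only through saline and was singled out with its result known. Its part in the 2.74% is therefore no evidence about the set. At an unadjusted p under 0.05, 5 genes were higher (6.8% of all genes were) and 7 lower (6.86% of all genes were), together 16.4% of the 73 against 13.7% of all genes. Groups that did not overlap were seen in 7 genes (9.59%, against 8.44% of all genes): 1 was higher, Aldh6a1 (4.66% of all genes were), and 6 were lower, Sult1c2a, Cyp2c7, Cyp2d3, Cyp2t1, Ephx2 and Aldh3b1 (3.78% of all genes were). The median log2 fold change was 0.07, beside -0.02 over all genes, with 40 genes above 0 (54.8%, against 46.6% of all genes) and 33 below. A fold change of 2 or more in either direction was measured for 7 genes (9.59%, against 5.31% of all genes). With 4 arrays in a group, the precision of each value is limited by their number.

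**Figure D2:**
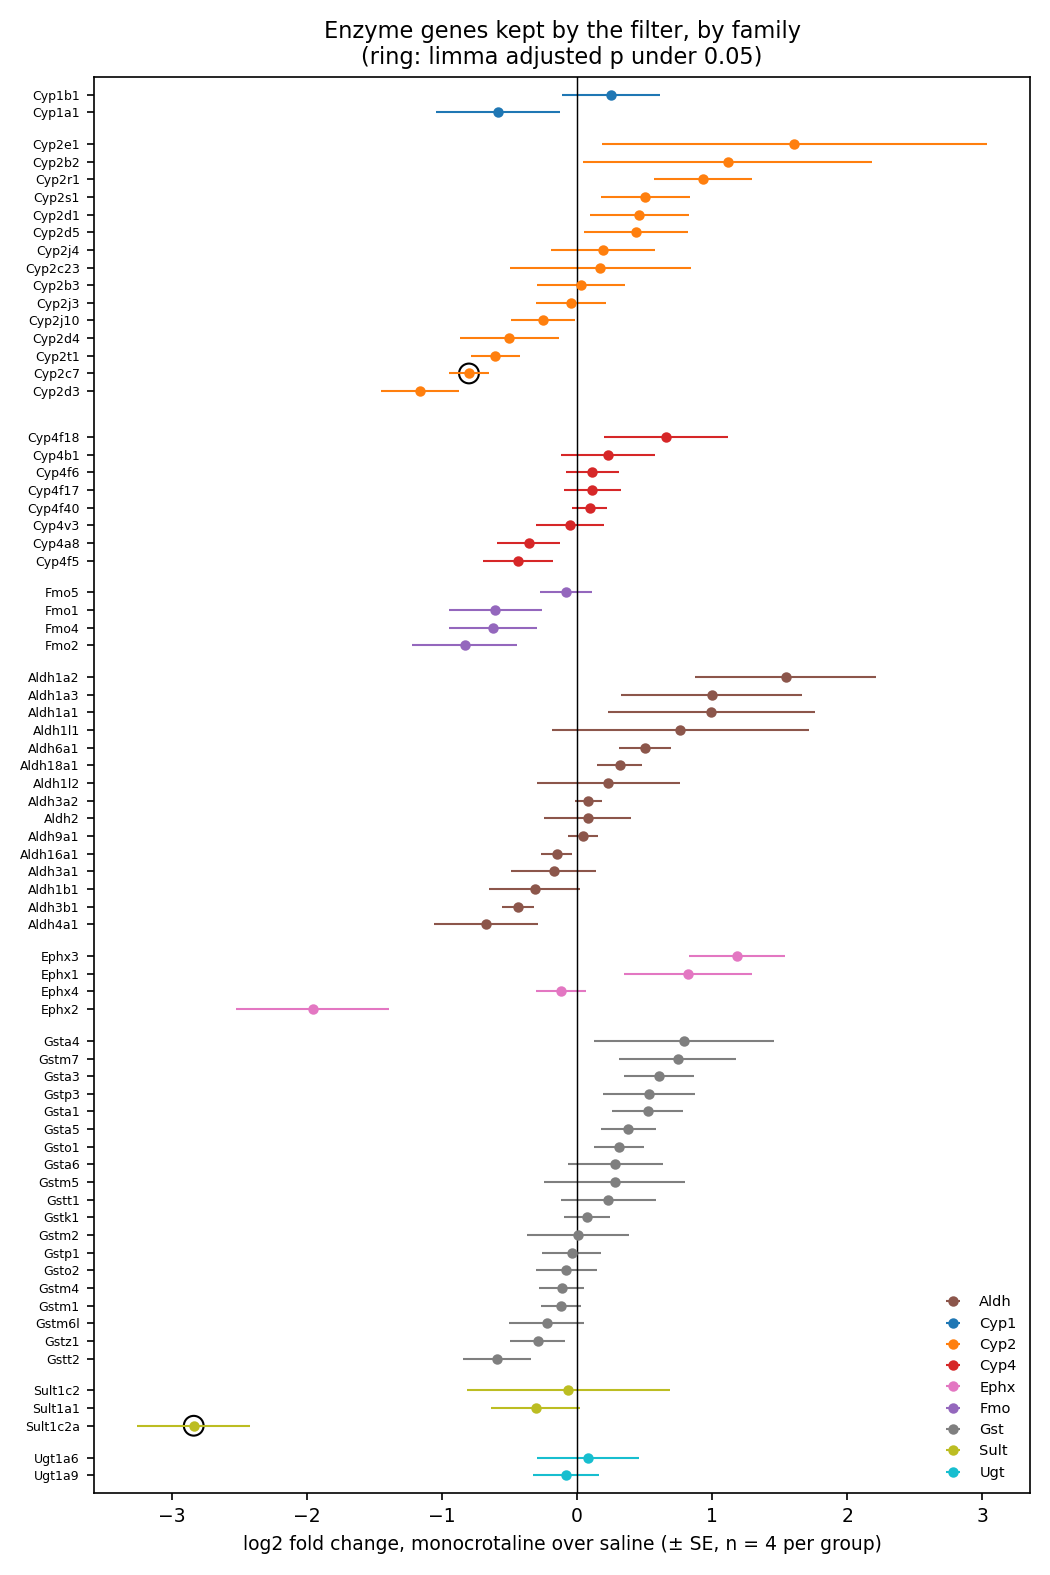
Log2 fold change, monocrotaline over saline (x axis), of 72 tested enzyme genes by family (y axis); bars are ± SE, n = 4 per group, and rings mark limma adjusted p under 0.05. Cyp2c7 is ringed at -0.80. The ringed Sult1c2a is drawn at its fitted value, though its monocrotaline signals were not above background. The 4.89-fold taken against a floor is not a strict limit either. The widest bar is that of Cyp2e1.

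Sulfotransferases move a sulfate group from the donor PAPS onto hydroxyl groups of drugs and hormones, and Sult1c2a belongs to their 1C branch. Its scaled log2 signal was -5.24, -5.27, -6.04 and -6.62 in saline replicates 1 to 4 and -8.62, -8.99, -9.27 and -7.66 in monocrotaline replicates 1 to 4. All 4 saline arrays lay above all 4 monocrotaline arrays. The probe was well above background on all 4 saline arrays and on none of the monocrotaline arrays, so it passed the filter only through the group in which it was high; it was the 1 enzyme gene of which this was true. The means were -5.79 ± 0.66 and -8.63 ± 0.70 (SD, n = 4 each). Each monocrotaline signal was replaced by the lowest signal well above background on its array where that was higher. Against these, monocrotaline signals of Sult1c2a were 4.89-fold lower than saline ones. That floor is the lowest of any probe, and brighter signals can miss the flag: -7.66 on monocrotaline 4 did, over a floor of -8.62. The 4.89-fold is therefore no strict lower limit. The limma fit gave an adjusted p of 0.0188 and a log2 fold change of -2.84 ± 0.42 SE. Both are taken against signals not above background, so neither is read as a size or as support.

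The Sult1c2a call depended on single arrays: the limma adjusted p was 0.0804 without saline 1, 0.0581 without saline 2, 0.0512 without saline 3 and 0.0650 without monocrotaline 1. It was also lost with another background correction (normexp with the same scaling), which gave -0.85 at adjusted p = 0.103. A second probe of the gene was well above background on 0 of 8 arrays, so it gives no second reading.

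Sult1c2 is the other 1C gene that could be tested. It measured -8.50, -8.36, -5.98 and -6.98 in saline replicates 1 to 4 and -6.44, -9.36, -7.34 and -6.95 in monocrotaline replicates 1 to 4. The groups overlapped throughout, and 2 saline and 3 monocrotaline arrays were well above background. The log2 fold change was -0.06 ± 0.75 SE, and its sign turned under other settings. Sult1a1, which sulfates small phenols, measured -0.05, -0.44, -0.10 and 0.59 in saline and -0.31, -0.11, 0.32 and -1.12 after monocrotaline. The lowest and the highest arrays of its groups overlapped (-0.31 ± 0.33 SE, limma adjusted p = 0.727). The other 9 SULT genes were not tested: Sult1c3 was well above background on monocrotaline arrays only, 1 of 4, and the rest on none. The difference between the Sult1c2a and Sult1c2 changes was not tested.

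The promoter windows of the 2 sulfotransferases are shown because the genes lie on the same chromosome, carry nearly the same name and gave different readings. They run from 250 bases before to 50 bases after the annotated start, 5′ to 3′ on the gene's strand, from RefSeq on the GRCr8 build, at chr9:7103153-7103452 on the minus strand for Sult1c2a and at chr9:7436731-7437030 on the plus strand for Sult1c2. Both were searched on both strands for GCGTG, the core bound by the aryl hydrocarbon receptor (AHR), and for TGACNNNGC, the core of the antioxidant response element bound by NRF2; the motifs do not overlap each other in the windows shown. Neither set of letters was found in either window, which says only that these letters are not there.
Sult1c2a: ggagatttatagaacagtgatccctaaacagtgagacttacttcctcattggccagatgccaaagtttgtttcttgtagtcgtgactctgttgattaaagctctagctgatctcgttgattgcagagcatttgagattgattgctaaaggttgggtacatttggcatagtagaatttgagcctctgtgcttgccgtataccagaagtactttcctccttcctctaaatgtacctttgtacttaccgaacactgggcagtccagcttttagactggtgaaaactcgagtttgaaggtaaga
Sult1c2: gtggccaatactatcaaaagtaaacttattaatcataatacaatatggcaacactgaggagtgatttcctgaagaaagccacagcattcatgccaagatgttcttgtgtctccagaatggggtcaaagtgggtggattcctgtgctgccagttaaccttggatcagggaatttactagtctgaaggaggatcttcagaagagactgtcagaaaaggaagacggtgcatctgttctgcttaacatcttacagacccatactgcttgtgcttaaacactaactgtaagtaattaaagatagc

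Windows were found for 103 of the 123 genes, several with more than 1 start. GCGTG occurred in 27 of 108 windows (25%), beside 29.7% of all 33469 rat promoter windows. TGACNNNGC occurred in 14 of 108 (13%), beside 12.1% of all. The enzyme genes thus held either core about as often as rat promoters at large, as a description and without a test. Cyp1b1 (chr6:21094315-21094614, plus strand) and Gsta1 (chr9:31216483-31216782, minus strand) belong to branches known as targets of AHR and NRF2 respectively, and are shown with the matches in capitals.
Cyp1b1: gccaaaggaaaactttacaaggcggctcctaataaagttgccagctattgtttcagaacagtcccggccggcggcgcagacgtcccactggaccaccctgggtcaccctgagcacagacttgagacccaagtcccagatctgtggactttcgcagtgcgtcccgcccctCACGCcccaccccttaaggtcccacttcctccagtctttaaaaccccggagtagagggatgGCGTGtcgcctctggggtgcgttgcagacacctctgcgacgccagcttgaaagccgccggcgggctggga
Gsta1: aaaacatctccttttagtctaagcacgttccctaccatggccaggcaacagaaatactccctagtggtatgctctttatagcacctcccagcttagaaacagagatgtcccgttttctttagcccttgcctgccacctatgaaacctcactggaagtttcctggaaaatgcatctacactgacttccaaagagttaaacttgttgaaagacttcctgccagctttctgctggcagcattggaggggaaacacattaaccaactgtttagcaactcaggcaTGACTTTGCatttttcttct

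The AHR pair Cyp1a1 and Cyp1b1 oxidise polycyclic hydrocarbons and some hormones. Cyp1a1 measured 0.18, 0.01, -0.55 and -1.33 in saline replicates 1 to 4 and -1.42, -0.22, -1.95 and -0.47 in monocrotaline replicates 1 to 4. The groups overlapped, with saline 4 lower than 2 of the monocrotaline arrays (-0.59 ± 0.46 SE, limma adjusted p = 0.611). Cyp1b1, whose window holds 2 GCGTG matches, measured -4.54, -5.58, -4.02 and -5.60 in saline and -4.79, -4.63, -4.34 and -4.97 after monocrotaline. All 4 monocrotaline arrays lay within the saline range (0.25 ± 0.36 SE, adjusted p = 0.809). Aldh3a1, another AHR target, stood at -0.17 ± 0.31 SE and Ahr itself at 0.08 ± 0.18 SE; neither passed the test.

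Cyp2c7 is a CYP2C oxidase best known from female rat liver, where it acts on retinoids and steroids. It measured -6.64, -6.12, -6.39 and -6.48 in saline replicates 1 to 4 and -7.21, -7.38, -7.20 and -7.04 in monocrotaline replicates 1 to 4. Every monocrotaline array was below every saline array, and each group was tight, with means of -6.41 ± 0.22 and -7.21 ± 0.14 (SD, n = 4 each). The gene was called lower after monocrotaline (limma log2 fold change -0.80 ± 0.15 SE, adjusted p = 0.0390). It was dim: 3 saline and 2 monocrotaline arrays were well above background, and its 2 other probes were so on 1 and 0 arrays. The call was lost on leaving out any 1 array, at adjusted p from 0.0682 without monocrotaline 2 to 0.110 without monocrotaline 1. It was also lost with median scaling, quantile normalization, the values as deposited, normexp under either scaling, no filter and with limma's trend and robust options; normexp moved the log2 fold change to -0.42 with the same scaling and to -0.25 with quantile normalization. Of 9 liver markers 5 could be tested (Ahsg, Apoa1, Apoa2, Serpina1 and Tf); limma called 0 of them, and the median of their log2 fold changes was -0.63. Their mean level, as a log2 difference from the saline mean, ranged from -0.08 to 0.17 in saline and from -0.82 to -0.29 after monocrotaline. Apob and Fgb were well above background on no array, and the part of liver transcripts in the Cyp2c7 value was not tested.

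Cyp2d3 had the most negative value of the CYP2 family. It measured -5.56, -5.78, -5.12 and -6.42 in saline replicates 1 to 4 and -6.79, -6.73, -7.39 and -6.61 in monocrotaline replicates 1 to 4. The groups did not overlap, yet the gene did not pass the test (-1.16 ± 0.29 SE, limma adjusted p = 0.122). The other CYP2D genes differed: Cyp2d4 stood at -0.50 ± 0.36 SE, and Cyp2d1 and Cyp2d5 at 0.46 ± 0.36 SE and 0.44 ± 0.39 SE. The Cyp2d1 and Cyp2d5 readings differed by at most 0.19 on any array; these paralogues are nearly identical, so their probes may not be separate measurements. Cyp2t1 measured -0.76, -0.51, -0.60 and -0.32 in saline and -0.95, -0.88, -1.19 and -1.59 after monocrotaline. Its groups did not overlap either, and it missed the threshold (-0.60 ± 0.18 SE, adjusted p = 0.204).

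Among CYP2 genes with positive values, Cyp2r1, a vitamin D 25-hydroxylase, measured -6.17, -5.85, -6.77 and -7.29 in saline and -5.75, -6.11, -5.62 and -4.87 after monocrotaline. Only monocrotaline 2 fell into the saline range (0.93 ± 0.36 SE, limma adjusted p = 0.319). Cyp2s1, an oxidase found outside the liver and in airway epithelium, measured -0.30, 0.16, -0.80 and -1.01 in saline and -0.50, -0.22, 0.71 and 0.08 after monocrotaline, and its groups overlapped (0.51 ± 0.33 SE). The epoxygenases Cyp2j3, Cyp2j4 and Cyp2j10, which make epoxides from arachidonic acid, lay between -0.25 and 0.19. Cyp2e1 and Cyp2b2 had the largest positive values of the family, 1.61 and 1.12, with SE of 1.43 and 1.07. Both rested on saline 2: without it they were at 0.57 and 0.18. They are described with the variable genes.

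CYP4 enzymes hydroxylate the far end of fatty acids and eicosanoids. None of the 8 tested genes passed, and their values ran from -0.44 to 0.66. Cyp4a8 measured 3.59, 3.48, 3.51 and 3.34 in saline replicates 1 to 4 and 3.19, 2.44, 3.25 and 3.62 in monocrotaline replicates 1 to 4. The saline arrays agreed closely, and monocrotaline 2 was the low array (-0.36 ± 0.24 SE). Cyp4b1, an oxidase abundant in lung, was at 0.23 ± 0.35 SE. Cyp4f5 stood at -0.44 ± 0.26 SE, with monocrotaline 1, at -0.44, the low array. Cyp4f18, a leukotriene B4 oxidase of neutrophils and other leukocytes, stood at 0.66 ± 0.46 SE and was well above background on 2 saline and 4 monocrotaline arrays. The related Cyp4a1, Cyp4a2 and Cyp4a3 were each well above background on 1 array of 8.

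Flavin monooxygenases add oxygen to nitrogen and sulfur atoms of drugs, among them pyrrolizidine alkaloids, which they can turn into N-oxides; FMO2 is the form typical of lung. No FMO gene passed the test. Fmo1 measured 2.82, 2.11, 3.71 and 3.27 in saline replicates 1 to 4 and 2.37, 2.89, 1.98 and 2.26 in monocrotaline replicates 1 to 4. Fmo2 measured 1.89, 1.76, 2.68 and 2.45 in saline and 1.66, 2.22, 0.41 and 1.15 after monocrotaline. In both genes saline 3 was highest and monocrotaline 3 lowest, and the groups overlapped. The log2 fold changes were -0.60 ± 0.34 SE for Fmo1 and -0.83 ± 0.39 SE for Fmo2, with limma adjusted p of 0.473 and 0.390. Fmo4 was at -0.62 ± 0.32 SE and Fmo5 at -0.08 ± 0.19 SE. The sign of Fmo5 turned without saline 3, to 0.035, and without monocrotaline 4, to 0.029.

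**Figure D3:**
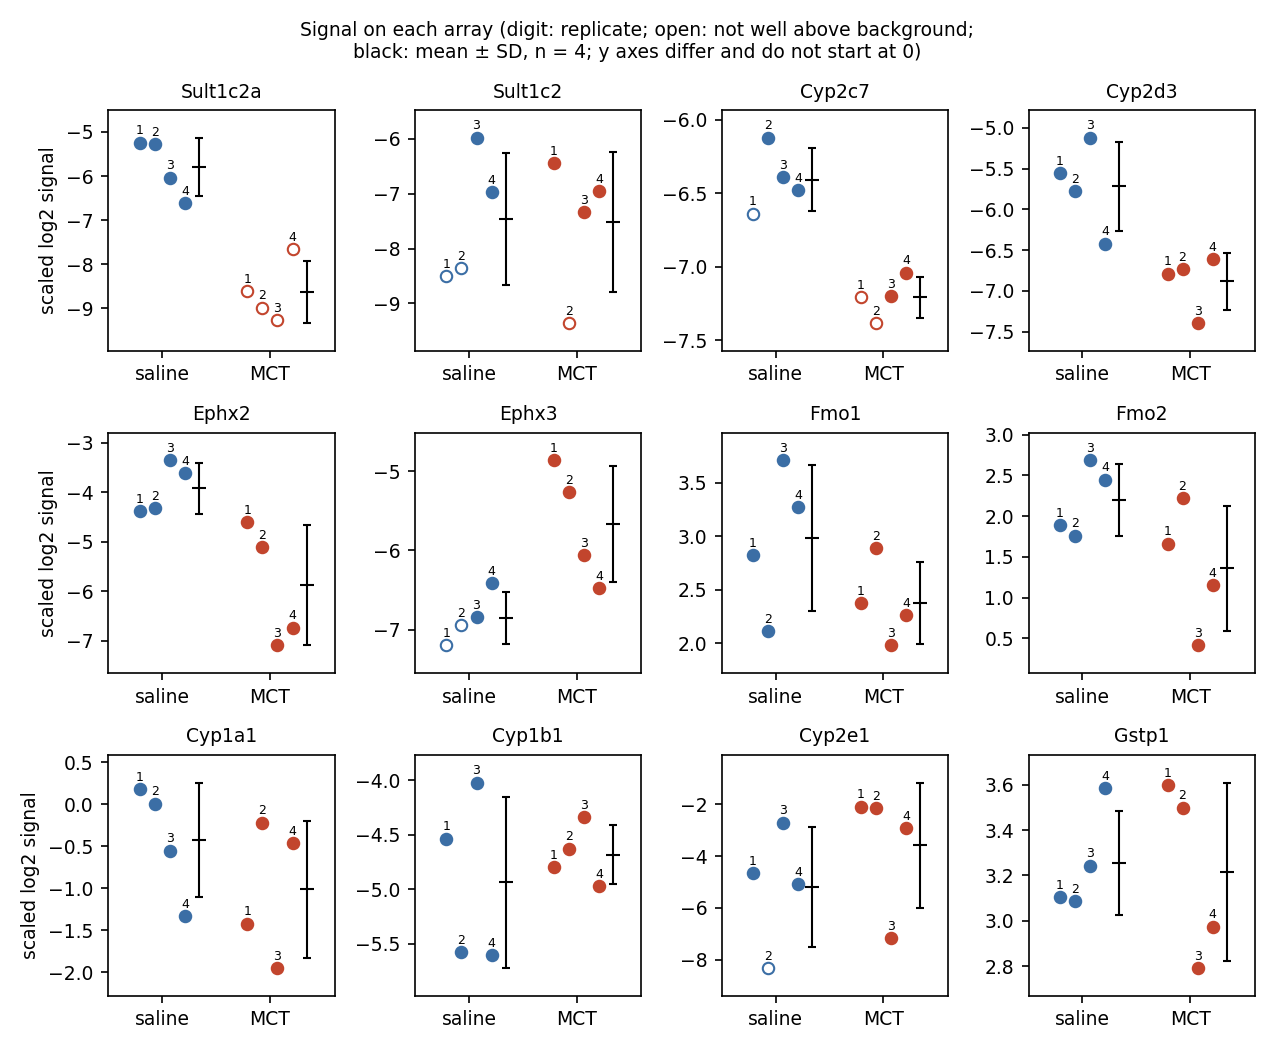
Scaled log2 signal (y axis, a separate range in each panel) of 12 enzyme genes on each saline and monocrotaline (MCT) array; points are arrays with their replicate number, open where not well above background, and black bars are the mean ± SD, n = 4. The groups separate for Sult1c2a, Cyp2c7, Cyp2d3 and Ephx2 and overlap for the other 8 genes.

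Epoxide hydrolases add water to epoxides, and their 4 tested members took different directions. Ephx2, the soluble enzyme that breaks down vasodilator fatty acid epoxides, measured -4.38, -4.33, -3.36 and -3.61 in saline replicates 1 to 4 and -4.60, -5.10, -7.08 and -6.73 in monocrotaline replicates 1 to 4. All monocrotaline arrays were below all saline arrays, replicates 3 and 4 far below. The value was -1.96 ± 0.57 SE, a 3.89-fold difference that missed the threshold (limma adjusted p = 0.176). Ephx3 measured -7.20, -6.94, -6.85 and -6.42 in saline and -4.86, -5.27, -6.06 and -6.48 after monocrotaline. Here monocrotaline 1 and 2 were the high arrays and monocrotaline 4 fell just inside the saline range (1.18 ± 0.35 SE, adjusted p = 0.193), with 2 saline arrays well above background. Ephx1, the microsomal enzyme that acts on drug epoxides, measured -1.89, -2.27, -1.87 and -2.71 in saline and 0.03, -2.42, -1.63 and -1.45 after monocrotaline. Monocrotaline 1 stood apart at the top (0.82 ± 0.47 SE, adjusted p = 0.478), and Ephx4 was at -0.12 ± 0.19 SE.

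Airway markers were high on monocrotaline 1 and 3. Ephx1 was high on monocrotaline 1 and Ephx3 on monocrotaline 1 and 2, and Ephx2 was low on monocrotaline 3 and 4. The 6 measured markers of the airway secretory list were Scgb1a1, Scgb3a1, Scgb3a2, Bpifa1, Bpifb1 and Krt5. Krt5, a gene of basal airway cells, had a log2 fold change of -0.23 ± 0.19 SE, and the others were positive. The mean level of the 6, as a log2 difference from the saline mean, ranged from -0.75 to 0.81 in saline. It reached 3.00 on monocrotaline 1 and 3.32 on monocrotaline 3, with 0.36 on monocrotaline 2 and 0.78 on monocrotaline 4. Leaving out monocrotaline 1 and 3, an alternative chosen after seeing the data, Ephx2 was at -2.0, Ephx1 at 0.25 and Cyp1a1 at 0.08. Sult1c2a was at -2.53 with limma adjusted p = 0.176, again against signals not above background. Cyp2a3, an oxidase of nasal and airway epithelium, was well above background only on monocrotaline 1 and 3, at -5.07 and -6.01, against -9.36 and -9.37 on monocrotaline 2 and 4 and -9.19 to -8.42 in saline; it was singled out after its values were seen and was not tested. Fewer cells of a type and less RNA per cell cannot be told apart in such bulk RNA, and the part of airway cells in these values was not tested.

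Aldehyde dehydrogenases oxidise aldehydes to acids. Of 15 tested, 10 had values above 0 and 5 below, the median was 0.08, and none passed. The retinaldehyde dehydrogenases, which make retinoic acid, had the largest positive values. Aldh1a1 measured 1.10, -0.93, 2.46 and 0.29 in saline replicates 1 to 4 and 2.91, 2.13, 0.31 and 1.55 in monocrotaline replicates 1 to 4. Aldh1a2 measured -4.52, -7.40, -4.17 and -5.01 in saline and -3.25, -3.54, -3.59 and -4.55 after monocrotaline. Saline 2 was the low array of both, and the groups overlapped. The values were 0.99 ± 0.77 SE for Aldh1a1 and 1.54 ± 0.67 SE for Aldh1a2, at limma adjusted p of 0.607 and 0.363, and Aldh1a3 was at 1.00 ± 0.67 SE.

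Aldh2, the mitochondrial enzyme that clears acetaldehyde, was at 0.08 ± 0.32 SE, and its sign turned under median scaling. Aldh4a1, a step in proline breakdown, measured 1.80, 1.65, 1.95 and 0.93 in saline and 1.52, -0.20, 1.09 and 1.20 after monocrotaline, with monocrotaline 2 the low array (-0.68 ± 0.39 SE). The groups separated in 2 of the 15 ALDH genes (13.3%, against 8.44% of all genes). Aldh6a1, of valine breakdown, measured -4.83, -5.62, -4.82 and -5.02 in saline and -4.67, -4.54, -4.67 and -4.40 after monocrotaline (0.50 ± 0.19 SE, limma adjusted p = 0.312). Aldh3b1, which acts on lipid aldehydes, measured 0.81, 0.90, 1.04 and 0.72 in saline and 0.52, 0.33, 0.53 and 0.34 after monocrotaline (-0.44 ± 0.12 SE, adjusted p = 0.160). Neither passed the test, and both shifts were under 2-fold. Aldh16a1 had narrow groups and stood at -0.15 ± 0.11 SE.

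Glutathione S-transferases couple glutathione to reactive compounds. Of 19 tested, 12 had values above 0 and 7 below, with a median of 0.23, and none passed. The balance rested on saline 2: without it 9 were above 0 and 10 below, with a median of -0.0017, and normexp with the same scaling gave a median of 0.037. Gstp1, the pi form, measured 3.1, 3.09, 3.24 and 3.59 in saline replicates 1 to 4 and 3.6, 3.5, 2.79 and 2.97 in monocrotaline replicates 1 to 4. Monocrotaline 1 and 2 matched the top of the saline range and monocrotaline 3 and 4 lay under it (-0.04 ± 0.22 SE, limma adjusted p = 0.958). All 5 tested alpha-class genes had values above 0, with a median of 0.52, and under each of the 21 settings 5 alpha genes were above 0 (5 of 6 with no filter). Gsta3, at 0.61 ± 0.26 SE, measured -1.96, -2.43, -1.56 and -2.02 in saline and -0.92, -1.19, -1.45 and -1.98 after monocrotaline, and its groups overlapped only through monocrotaline 4 (adjusted p = 0.362). Gsta1, whose window holds a TGACNNNGC match after the start, was at 0.52 ± 0.26 SE, Gsta5 at 0.38 ± 0.20 SE, Gsta6 at 0.28 ± 0.35 SE and Gsta4, which conjugates the lipid aldehyde hydroxynonenal, at 0.79 ± 0.67 SE. The alpha-class genes are close copies of each other, so their probes may share signal. The mu class, by contrast, had 3 values above 0 and 3 below. Gstt2 had the most negative GST value, with -2.10, -2.30, -1.91 and -1.79 in saline and -2.26, -2.11, -3.04 and -3.07 after monocrotaline. Its monocrotaline 3 and 4 arrays were the low ones (-0.59 ± 0.25 SE, adjusted p = 0.356).

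UDP-glucuronosyltransferases add glucuronic acid. Ugt1a6 measured -0.05, 0.34, 0.30 and -0.75 in saline and 0.27, -0.98, 0.29 and 0.59 after monocrotaline, and the groups overlapped (0.08 ± 0.38 SE). Ugt1a9 stood at -0.08 ± 0.24 SE. The Ugt1a genes share exons, so the probes may not separate them, and the sign of either turned when 1 array was left out.

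The genes that serve these enzymes were taken from lists drawn up beside the set. Of 8 electron donors and haem genes, among them Por, which passes electrons to every microsomal CYP, limma called 0 (median -0.12; Por -0.06 ± 0.14 SE). Of 9 measured cosubstrate genes it called 0 (median 0.13). In 2 of the 9 the groups did not overlap, both higher (4.66% of all genes were): Papss2, which makes the sulfate donor PAPS, at 0.53 ± 0.20 SE, and Ugdh, which makes UDP-glucuronic acid, at 0.29 ± 0.11 SE. Gclc, the rate-limiting subunit of glutathione synthesis, was at 0.39 ± 0.17 SE. Of 10 measured receptors 0 were called (median -0.05); Rxra, the partner of several nuclear receptors, was at -0.46 ± 0.15 SE with groups that did not overlap (limma adjusted p = 0.227), and Nfe2l2, which encodes NRF2, at 0.18 ± 0.16 SE. Of 25 other conjugating and reducing enzymes 0 were called (median -0.06), and the NRF2 target Nqo1 was at 0.04 ± 0.24 SE.

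Of the 8 efflux transporters, 1 was called higher, where 1.37% of all genes were, and 0 lower. It was Abcc2 (MRP2), which exports glutathione, glucuronide and sulfate conjugates. Abcc2 measured -5.00, -5.38, -5.19 and -5.37 in saline replicates 1 to 4 and -3.76, -4.20, -4.33 and -4.36 in monocrotaline replicates 1 to 4. Every monocrotaline array was above every saline array (1.07 ± 0.17 SE, limma adjusted p = 0.0248). The call was lost without any 1 of saline 1 to 4, at adjusted p of 0.0676, 0.0677, 0.0703 and 0.0735, and without monocrotaline 4, at 0.0614; normexp with the same scaling gave 0.49 at adjusted p = 0.214. Without monocrotaline 1 and 3 the adjusted p was 0.114. Abcc5, an exporter of cyclic nucleotides, was lower with groups that did not overlap but did not pass (-0.34 ± 0.11 SE, limma adjusted p = 0.237). The median of the 8 transporters was -0.15, and Abcb1b, a drug pump of the P-glycoprotein type, was at -0.71 ± 0.34 SE without passing the test.

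The enzyme genes varied more between replicates than genes at large. The residual SD, the spread left within groups, had a median of 0.521 log2 units over the 73 genes and 0.285 over all genes tested. It was over 1 in 9 enzyme genes (12.3%) and in 4.5% of all genes. Detection differed too: 57 of the 73 were well above background on all 8 arrays, against 17244 of all 19137 genes tested. The spread was not compared at matched detection, so it cannot be read as a trait of the enzyme genes. Cyp2e1, an oxidase of ethanol and small solvents, was the most variable, at 2.38. It measured -4.65, -8.32, -2.71 and -5.10 in saline replicates 1 to 4 and -2.09, -2.16, -7.17 and -2.93 in monocrotaline replicates 1 to 4. Saline 2 and monocrotaline 3 were the low arrays, and the saline range alone spanned 5.62 log2 units. Cyp2b2, with a residual SD of 1.77, measured -4.37, -6.98, -1.19 and -4.17 in saline and -3.60, -1.95, -3.78 and -2.91 after monocrotaline. Its saline arrays spanned 5.79 log2 units and enclosed all 4 monocrotaline arrays. The others were Aldh1l1, Aldh1a1, Sult1c2, Aldh1a3, Aldh1a2, Cyp2c23 and Gsta4.

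Saline 2 was the lowest and saline 3 the highest of the saline arrays in 8 of these 9 genes, in 24 of all 73 (32.9%) and in 11.8% of all genes tested. This order was chosen after the values were seen. Cyp2e1, Cyp2b2, Aldh1l1, Aldh1a2, Aldh1a3 and Cyp2c23 were not well above background on saline 2, so their low values there are not readings above background. Saline 2 was also the array with the smallest share of spots well above background (70.8%). Of 12 marker lists for cells other than endothelium, 6 had the same order (alveolar type 1 and type 2, ciliated, fibroblast and mesothelial, smooth muscle and pericyte, and liver). The liver list had it by a narrow margin, with -0.08 on saline 2, -0.07 on saline 1 and 0.17 on saline 3. The other 6 did not: airway secretory, neutrophil and erythroid markers were highest on saline 1, T and NK and macrophage markers were lowest on saline 4, and B cell markers ran the opposite way, at 0.79 on saline 2 and -0.57 on saline 3. As a log2 difference from the saline mean, the mean level of 7 alveolar type 2 markers was -2.01 on saline 2 and 1.38 on saline 3, that of 8 fibroblast and mesothelial markers -1.87 and 1.59, and that of 8 smooth muscle and pericyte markers -1.37 and 1.25. The 12 endothelial markers were at -0.26 and -0.01 on the same arrays. Over the monocrotaline arrays the fibroblast level ranged from 0.32 to 1.75 and the alveolar type 2 level from -0.06 to 0.70, while limma called 0 genes of either list. Every marker of these 3 lists with a probe on the arrays was measured, so none was at background throughout, and their part in the enzyme values was not tested.

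**Figure D4:**
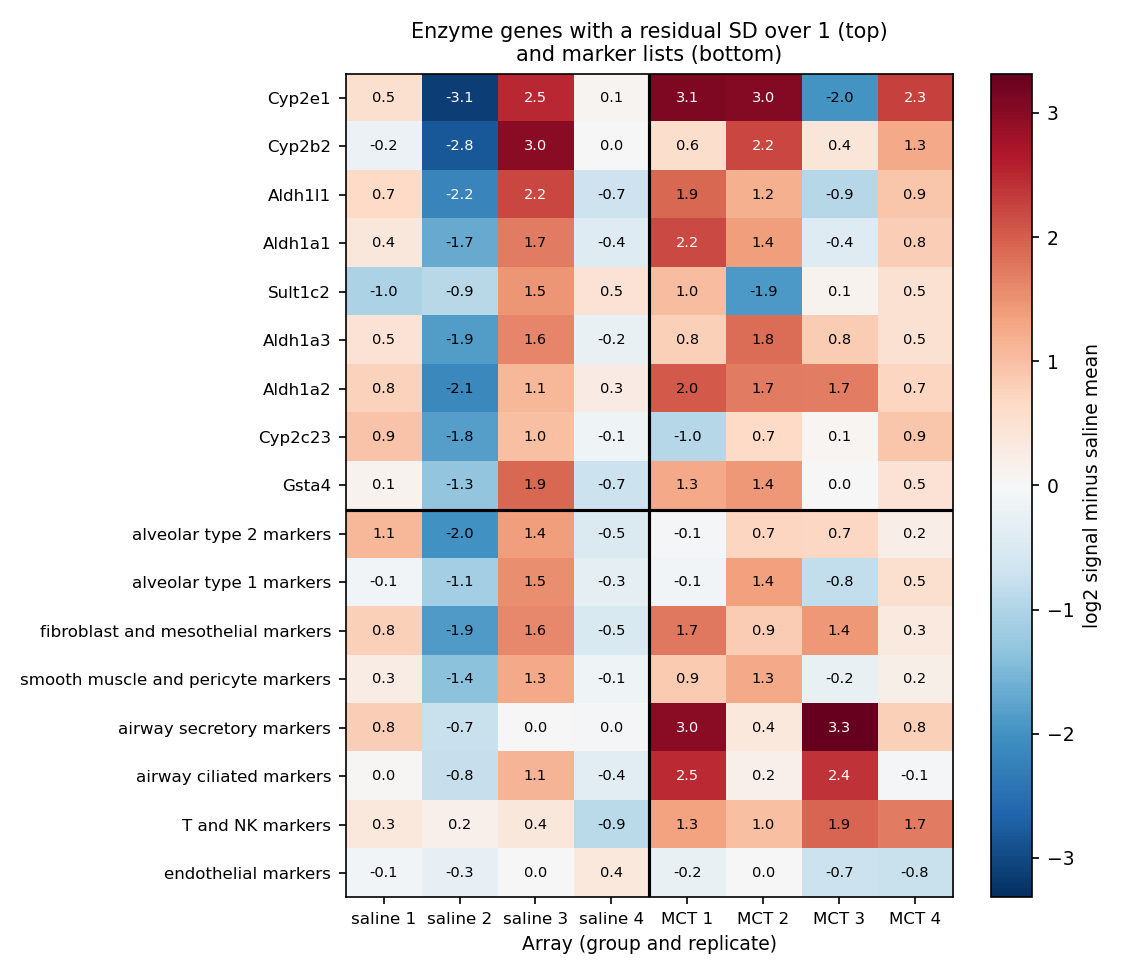
Log2 signal of each array minus the saline mean (colour and printed value) for the 9 enzyme genes with a residual SD over 1 (top) and for the mean of each marker list (bottom), by array (x axis; MCT is monocrotaline). Saline 2 is low and saline 3 high for 8 of the 9 genes, all but Sult1c2, as for the alveolar, fibroblast and smooth muscle markers. Among those genes only Aldh1a1 and Gsta4 were well above background on saline 2.

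T and NK cell markers rose with treatment in part: limma called 3 of 12 higher (Cd247, Cd8b and Zap70), where it called 1.37% of all genes higher, and 0 lower. Their level ranged from -0.89 to 0.37 in saline and from 1.01 to 1.93 after monocrotaline. The 12 endothelial markers ranged from -0.26 to 0.36 and from -0.75 to -0.02, with a median log2 fold change of -0.47. The endothelial level was -0.09, -0.26, -0.01 and 0.36 in saline replicates 1 to 4. In monocrotaline replicates 1 to 4 it was -0.25, -0.02, -0.70 and -0.75. Sult1c2a and Cyp2c7 were also lower after monocrotaline, where the Sult1c2a signals were not above background. Their signals on each array are given above. The part of either marker group in the values of Sult1c2a and Cyp2c7 was not tested.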

How the data were processed

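Each of 8 samples, 1 array each, was assigned to saline or monocrotaline from its labels. The members and the gene lists were chosen with earlier results of these data known. The processed-signal intensities come, per the file headers, from version 10.7.3.1 of Agilent's Feature Extraction, which subtracted background and detrended within an array without scaling between arrays. Flags of the spots (control, outlier, above background, saturated) are other values, 0 or 1, as deposited. The values deposited for the series are log2 of a quantile-normalized log2 signal (median absolute difference 9.89e-10 from the scanner files so treated) and served as an alternative. limma 3.6.9 appears in the submitters' processing notes, its role not given.

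Control spots (4259) and outlier spots were left out, a probe's log2 signals averaged, and the 75th percentile of each array's non-control spots subtracted. RefSeq gave symbols to 18004 of 30350 probes; the others were tested unnamed. Probes well above background on at least 4 of 8 arrays were kept, the brightest per gene, and compared with limma 3.58.1 (R 4.3.3), two-sided, without a block. On data simulated for these 19137 genes it called 52% of 100 genes changed by 1 log2 unit and 81% of 100 changed by 2. The changed genes were drawn from all genes, with independent noise. The median residual SD was 0.285 over all genes and 0.521 over the enzyme genes, for which no separate share was simulated. These shares may be too high for the enzyme genes. In 11 enzyme genes with over 1 probe kept, log2 fold changes of probes differed by at most 0.27. Named by rule were, per family, the called, most positive, most negative and brightest genes, those detected in 1 group alone, the 5 most variable of all families, and a short list; other genes were named after their values were seen, and 1 tested gene is counted but not reported here. P-values measure the spread between animals and arrays together. Alternatives covered background correction, scaling, filter, probe choice, variance options, the replicate block and left-out arrays.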

Additional observations from a re-analysis of the deposited data

Results flagged for a closer look

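A single array stood far from the other 3 of its group in 3 of the 88 groups of 4 arrays examined among the named genes and lists, where chance gives about 1 in 20. Cyp2e1 was at -7.17 on monocrotaline 3, against -2.93 to -2.09 on the other monocrotaline arrays. The T and NK marker level was lowest on saline 4, at -0.89, against 0.18 to 0.37 on the other saline arrays. The macrophage and monocyte marker level was also lowest on saline 4, at -0.61, against 0.14 to 0.27.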

How the results depend on the processing

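Under 20 alternatives no enzyme gene was called higher. The number called lower, 2 as reported, was 2 with probes averaged and with linear averaging of spots, 1 without a filter, with limma's trend and robust options, with median scaling, with quantile normalization or from the deposited table, 0 with normexp under either scaling, 0 with a filter on all 8 arrays (which tests neither gene), 0 without monocrotaline 1 and 3, and 0 to 1 on leaving out 1 array. Sult1c2a was the 1 gene wherever 1 was called: it kept its call in 11 of 19 settings (limma adjusted p 0.0185 to 0.176, log2 fold change -3.16 to -0.69), and Cyp2c7 in 2 of 19 (adjusted p 0.0390 to 0.337). Both stayed below 0. The Sult1c2a values were taken against monocrotaline signals not above background in every setting. Neither its kept calls nor its range is therefore read as a size or as support. The other 29 named genes passed in none of 573 values.

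With the replicate number as a block, 0 enzyme genes and 0 of all genes were called (Sult1c2a at limma adjusted p = 0.115, Abcc2 at 0.0855). Same-numbered arrays correlated between -0.33 and -0.02, and none best with its own number. No pairing by number was seen in the signals, though such correlations cannot show that the animals were unpaired. Over all genes, 262 were called higher and 12 lower, 9 to 269 and 0 to 87 on leaving out 1 array, 69 and 1 without monocrotaline 1 and 3; 22 were lower with normexp and quantile normalization and 24 with median scaling, which moved the median of all genes from -0.02 to -0.11 and left 34 enzyme genes above 0 and 39 below.

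Signs turned in 9 genes, most near 0 but also Cyp4f18 (0.66 as reported), Cyp1a1 (-0.59) and Cyp1b1 (0.25); the cause was not tested. With median scaling Aldh2 was at -0.0037 and Ugt1a6 at -0.0019. Without monocrotaline 1 and 3, Cyp1a1 was at 0.083 and Ugt1a6 at -0.16. With normexp and the same scaling Cyp1b1 was at -0.033 and Cyp4f18 at -0.028. Gstp1 was at 0.013 with normexp and quantile normalization and at 0.048 in the deposited table. Sult1c2 was at 0.23 with quantile normalization and at 0.073 in the deposited table. On leaving out 1 array, Aldh2 ran from -0.080 to 0.36, Fmo5 from -0.22 to 0.035, Gstp1 from -0.17 to 0.10, Sult1c2 from -0.42 to 0.55, Ugt1a6 from -0.16 to 0.42 and Ugt1a9 from -0.25 to 0.087. Signal over background limits the 50 genes that were not tested. The alternatives that left out monocrotaline 1 and 3 or averaged spots on the linear scale were chosen after seeing the data.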
